A study of Mus musculus with 6 samples.

Results

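Adipocytes are endocrine cells, and 10 of their secreted products are described here at the level of their transcripts. They are adiponectin (*Adipoq*), leptin (*Lep*), resistin (*Retn*), retinol-binding protein 4 (*Rbp4*), nicotinamide phosphoribosyltransferase (*Nampt*, secreted as visfatin), apelin (*Apln*), angiotensinogen (*Agt*), chemerin (*Rarres2*), lipocalin 2 (*Lcn2*) and neuregulin 4 (*Nrg4*). The genes were chosen by symbol, and each of the 10 symbols matched 1 of the 56884 genes quantified. RNA was taken from a mouse cell line of the stromal vascular fraction (SVF) of subcutaneous white adipose tissue (scWAT), the fraction that holds adipocyte precursors. The line overexpressed HA-tagged mouse PPARγ2, the adipogenic nuclear receptor, from a retroviral vector and had been selected with puromycin. In PPARγ2 K382Q-overexpressing cells lysine 382 was glutamine, which mimics acetylation, and in PPARγ2 K382R-overexpressing cells it was arginine, which mimics the deacetylated state. Both groups held 3 biological replicates at day 2 of beige adipocyte differentiation. Both had received rosiglitazone (0.5 μM), which is itself a PPARγ agonist, with T3 (1 nM), insulin (5 μg/mL), dexamethasone (2 μg/mL), indomethacin (125 μM) and isobutylmethylxanthine (500 μM). Cells with wild-type PPARγ2 or an empty vector were not analysed here, so every difference is between the mutants, and neither can be set against an unmodified level. Each mutant was introduced by its own transduction and selection, and whether the replicates came from separate transductions is not given. The residue and the transduced line therefore cannot be told apart. The question was whether acetylation of PPARγ2 at this lysine alters the transcripts of adipocyte hormones early in beige differentiation.

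Adiponectin is made almost solely by adipocytes, circulates as disulfide-linked multimers and raises insulin sensitivity, and its gene is a classical target of PPARγ. Leptin reports the size of the fat store to the brain, resistin opposes insulin action in mice, and RBP4 carries retinol in the blood. NAMPT catalyses the rate-limiting step of NAD salvage inside cells and is also found outside them. Apelin and angiotensinogen act on vessels and fluid balance, chemerin attracts immune cells and acts on adipocytes, lipocalin 2 binds iron-loaded siderophores, and neuregulin 4 is an ErbB ligand enriched in brown fat.

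The 6 libraries held 5.95 to 8.15 Gb of aligned bases, and 22663 to 23837 genes had a TPM above 0. TPM, which scales all libraries to the same total, is corrected for transcript length, so it gives shares of the transcripts and allows levels of different genes to be compared. *Pparg*, the overexpressed gene, had TPM values of 1333, 1164 and 1104 in PPARγ2 K382Q-overexpressing cells and 1590, 1632 and 1612 in PPARγ2 K382R-overexpressing cells. The log2 difference between the mutants was -0.43 (SE 0.064, adjusted p = 0.000977; -0.28 with median-ratio scaling), and reads of the vector and of the resident gene could not be told apart. Markers of mature adipocytes were abundant, with a summed TPM of 55620 to 59410 in K382Q cells against 45900 to 47110 in K382R cells. With 12 of 12 tested, 5 were higher and 2 lower in K382Q cells, where 11.1% of all tested genes were higher and 36.9% lower. Median-ratio scaling, which sets the median of all genes near 0, gave 9 higher and 1 lower, and quantile normalization 4 and 2. Most of the summed TPM was *Fabp4*, the fatty acid-binding protein of adipocytes, which was among the 5 called higher (log2 fold change 0.34, adjusted p = 0.00093). The 2 called lower were *Lpl* and the C/EBP factor gene *Cebpa*. *Cebpa* had TPM values of 164, 192 and 181 in K382Q cells and 304, 337 and 304 in K382R cells (log2 fold change -0.815, adjusted p = 3.95e-05). Preadipocyte and fibroblast markers summed to 704 to 743 against 1145 to 1192 TPM. Of these, 7 of the 7 tested of 11 were lower in K382Q cells, where 36.9% of all tested genes were lower. Leukocyte markers summed to 12.9 to 14.0 against 14.6 to 16.8 TPM. Most of this was *Cd14* and *Cd68* (means of 8.64 and 4.11 TPM over the 6 libraries), while *Adgre1* and *Cd3e* were listed at 0 in all 6 libraries. Of the 11 leukocyte markers 3 were tested, and *Cd14* was the 1 called lower (log2 fold change -0.32, adjusted p = 0.0203). With median-ratio scaling or quantile normalization none of them was called. Endothelial markers summed to 1.63 to 2.25 against 1.69 to 1.82 TPM, and mural cell markers to 2.64 to 3.82 against 2.14 to 2.31 TPM. The white and beige marker *Hoxc9* had a TPM of 16.8 to 18.9 against 25.4 to 25.9, and the brown markers *Zic1* and *Meox1* were listed at 0. In bulk RNA, fewer cells of a type and less RNA per cell cannot be told apart, and the part of the adipocyte and preadipocyte marker differences in the results below was not tested.

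PPARγ binds DNA as a dimer with RXR, each partner reading an AGGTCA element, and the C/EBP factors that act beside it in adipocytes read sites of the form TTNNGNAA. The RefSeq promoter table (GRCm38.p6, 250 bases before to 50 after a start) held 10 windows for 9 of the members. Each window matched GRCm39, the build of the expression tables, exactly at 1 place, and positions are given in GRCm39. On either strand, AGGTCA was found in 2 of the 10 windows and in 16.3% of all 32851 windows. AGGTCA repeated in the same direction with 1 base between, the full PPARγ and RXR element, was in none of the 10 and in 0.0396% of all. TTNNGNAA was in 6 of the 10 and in 40.7% of all. Its palindromic form TTGCGCAA, which TTNNGNAA includes, was in 1 of the 10 and in 0.183% of all. Of the other motifs searched, ACGTG (hypoxia response) was in 3 of the 10 and 19.6% of all windows. None of the 10 held GAAANNGAA (interferon response, 8.56% of all), GGANTTTCC (NF-κB, 1.25%), AGAACA (glucocorticoid receptor, 19.0%) or CACGTG (E-box, which includes ACGTG, 7.15%). A match is a description of letters and not a binding site, and no match says only that these letters are not in the window. The 250 bases before the start are shown for the members with the largest fall and the largest rise that had a window (*Adipoq*, *Rbp4*), for the windows with an AGGTCA element (*Nrg4*, *Nampt*) and for the member listed at 0 (*Lep*), with capitals marking AGGTCA and TTNNGNAA on either strand. *Adipoq* lies on the plus strand at chr16:22965036-22965285, with a C/EBP-type match beginning 81 bases before the start and no AGGTCA. *Rbp4*, on the minus strand, has an upstream start with chr19:38113770-38114019 before it and a downstream start with chr19:38113260-38113509 before it, and their matches are of the C/EBP type. *Nrg4*, also on the minus strand at chr9:55190910-55191159, has AGGTCA reading on the opposite strand 90 and 26 bases before the start. That start, at 55190909, lies inside the span of the expression table, whose *Nrg4* row begins at 55234128. *Nampt*, on the plus strand at chr12:32870084-32870333, has AGGTCA 151 bases before the start, and *Lep*, on the plus strand at chr6:29059970-29060219, has the C/EBP palindrome 55 bases before the start.
Adipoq: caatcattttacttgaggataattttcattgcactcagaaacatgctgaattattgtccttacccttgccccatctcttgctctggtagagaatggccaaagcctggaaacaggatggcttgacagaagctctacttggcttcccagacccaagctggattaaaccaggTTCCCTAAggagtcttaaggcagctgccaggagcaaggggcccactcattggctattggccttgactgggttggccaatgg
Rbp4 upstream start: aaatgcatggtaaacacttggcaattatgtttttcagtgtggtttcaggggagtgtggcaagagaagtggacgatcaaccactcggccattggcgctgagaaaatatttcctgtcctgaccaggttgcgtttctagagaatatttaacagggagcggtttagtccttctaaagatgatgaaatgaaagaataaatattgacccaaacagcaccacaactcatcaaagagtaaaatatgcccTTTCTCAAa
Rbp4 downstream start: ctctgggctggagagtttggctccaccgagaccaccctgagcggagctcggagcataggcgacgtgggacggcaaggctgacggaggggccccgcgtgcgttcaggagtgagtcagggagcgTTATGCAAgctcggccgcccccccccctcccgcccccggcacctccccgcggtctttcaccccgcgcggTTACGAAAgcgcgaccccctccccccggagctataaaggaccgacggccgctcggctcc
Nrg4: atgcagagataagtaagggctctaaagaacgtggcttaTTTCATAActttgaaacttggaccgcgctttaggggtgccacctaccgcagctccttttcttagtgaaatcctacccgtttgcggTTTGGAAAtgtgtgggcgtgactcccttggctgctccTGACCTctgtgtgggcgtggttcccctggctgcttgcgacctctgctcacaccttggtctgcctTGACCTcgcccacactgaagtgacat
Nampt: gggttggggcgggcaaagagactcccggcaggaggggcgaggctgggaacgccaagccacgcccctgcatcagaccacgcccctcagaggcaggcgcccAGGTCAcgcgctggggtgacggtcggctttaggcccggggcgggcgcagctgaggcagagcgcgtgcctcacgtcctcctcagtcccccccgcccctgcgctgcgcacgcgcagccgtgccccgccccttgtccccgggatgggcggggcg
Lep: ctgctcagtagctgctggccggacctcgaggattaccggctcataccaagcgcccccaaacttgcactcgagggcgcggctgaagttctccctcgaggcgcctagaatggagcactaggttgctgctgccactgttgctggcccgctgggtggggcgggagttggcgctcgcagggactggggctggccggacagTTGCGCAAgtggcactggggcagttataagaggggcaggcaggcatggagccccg

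Transcripts of 9 adipokines were detected, and their levels moved in opposite directions between the mutants. *Rbp4*, *Apln*, *Nrg4*, *Lcn2*, *Nampt* and *Retn* were higher in PPARγ2 K382Q-overexpressing cells, and *Adipoq*, *Rarres2* and *Agt* were lower. *Lep* was listed at 0 in all 6 libraries. The mutants were compared gene by gene with limma on log2(TPM + 0.5), with 15426 genes tested that reached 0.5 TPM in 3 or more libraries. All 9 tested members passed an adjusted p-value of 0.05, with 6 higher where 11.1% of all tested genes were higher, and 3 lower where 36.9% were lower. With a fold change over 2 as well, *Rbp4* was the 1 member higher (1.27% of all tested genes) and *Adipoq* and *Rarres2* were the 2 members lower (2.61%). In the 9 members the values of the groups did not overlap, which held for 57.0% of all tested genes. The median log2 fold change was 0.37 over the 9 members and -0.14 over all tested genes. Median-ratio scaling brought the latter to 0.0032 and the members' median to 0.52, and under it the split of all calls went from 23.2% to 49.2% higher (47.7% with quantile normalization), while the members counted under these scalings stayed at 6 higher and 3 lower. With 3 against 3 libraries an exact two-sided permutation test of a single gene cannot go below p = 0.1, so these tests rest on the spread that limma shares across genes.

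**Figure D1:**
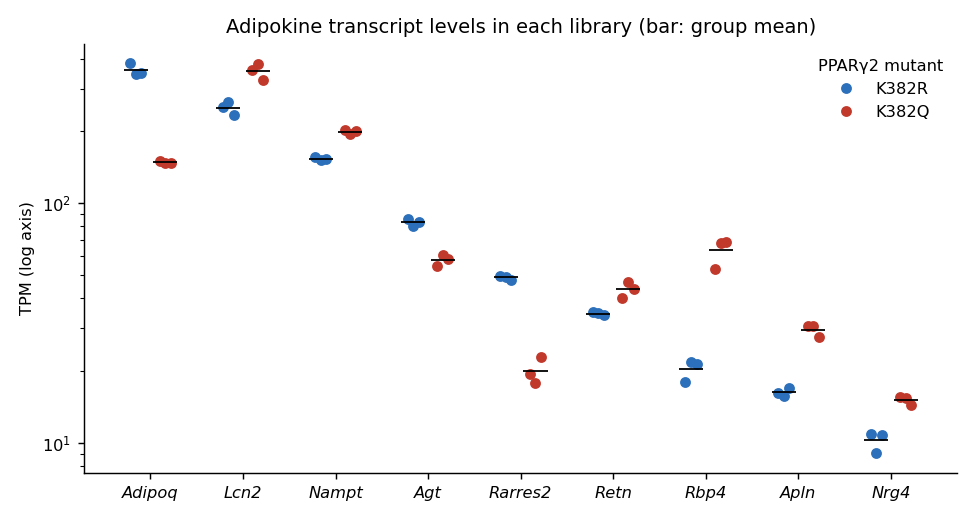
TPM on a log axis of the 9 detected adipokines in each of the 6 libraries (points; 3 PPARγ2 K382R in blue, 3 PPARγ2 K382Q in red), with bars at the group means and genes in the order of their K382R level. By TPM *Adipoq* led in K382R cells at 346 to 383 TPM and fell to 147 to 149 TPM in K382Q cells, where *Lcn2* led at 327 to 382 TPM; *Lep*, listed at 0, is not drawn.

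The insulin-sensitising hormone adiponectin had the smallest adjusted p-value of the members. *Adipoq* (ENSMUSG00000022878.6, plus strand of chr16:22965286-22976778) had TPM values of 149, 147 and 148 in PPARγ2 K382Q-overexpressing cells and 383, 346 and 351 in PPARγ2 K382R-overexpressing cells. The K382Q libraries lay within a few TPM of each other and far below every K382R library. The means were 148 ± 1.20 (SD, n = 3) and 360.0 ± 20.2, and the log2 fold change was -1.28 (SE 0.041, 95% interval -1.37 to -1.18, adjusted p = 7.63e-07). Counted from the most negative log2 fold change of all tested genes, *Adipoq* held rank 198. *Rarres2* (ENSMUSG00000009281.7, minus strand of chr6:48546630-48549723) encodes chemerin, the ligand of CMKLR1. Its TPM was 19.4, 17.8 and 22.8 in K382Q cells and 49.9, 49.4 and 48.0 in K382R cells. Again every K382Q library lay below every K382R library, with more spread among the K382Q libraries (coefficient of variation 12.7% against 2.03%). The log2 fold change of -1.28 (SE 0.083, interval -1.47 to -1.09, adjusted p = 1.55e-05) held rank 197, next to *Adipoq*, and the ratio of *Adipoq* to *Rarres2* was 7.48 ± 0.909 in K382Q cells and 7.34 ± 0.335 in K382R cells, with overlapping values. *Rarres2* overlaps *Lrrc61* on the opposite strand by 1027 bases, and the library kit is not described as marking strand. *Lrrc61* itself had TPM values of 4.62 to 5.65 over the 6 libraries, with a log2 fold change of 0.029 (adjusted p = 0.834).

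*Agt*, the precursor of the angiotensin peptides, was the third member that fell. *Agt* (ENSMUSG00000031980.11, minus strand of chr8:125283273-125296445) had TPM values of 54.8, 60.5 and 58.5 in K382Q cells and 86.2, 80.6 and 83.4 in K382R cells. The highest K382Q library stayed clearly below the lowest K382R library. The log2 fold change was -0.52 (SE 0.047, interval -0.63 to -0.41, adjusted p = 7.45e-05), a ratio of means of 0.695.

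The retinol carrier *Rbp4* rose most. *Rbp4* (ENSMUSG00000024990.14, minus strand of chr19:38105077-38113729) had TPM values of 53.3, 68.2 and 69.1 in K382Q cells and 17.9, 21.6 and 21.3 in K382R cells. In either group 1 library stood below the other two, and the lowest K382Q library was more than 2-fold above the highest K382R library. The means of 63.5 ± 8.88 and 20.3 ± 2.09 differed 3.14-fold, with a log2 fold change of 1.62 (SE 0.11, interval 1.36 to 1.88, adjusted p = 2.20e-05), rank 45 from the top of all tested genes. The span of *Ffar4*, a fatty acid receptor gene on the opposite strand, ends 2365 bases before that of *Rbp4*. *Ffar4*, chosen after its values were seen, rose alike, from 12.93, 12.97 and 11.98 TPM in K382R cells to 44.1, 39.8 and 43.5 TPM in K382Q cells (log2 fold change 1.71, SE 0.059, adjusted p = 9.61e-07). Without strand, reads that run past the end of either gene cannot be assigned, and their part in the *Rbp4* value was not tested.

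*Apln* (ENSMUSG00000037010.8, minus strand of chrX:47114023-47123730), the vasoactive peptide gene, had TPM values of 30.6, 30.7 and 27.7 in K382Q cells and 16.06, 15.64 and 16.97 in K382R cells. The groups stood well apart, with a ratio of means of 1.83 and a log2 fold change of 0.85 (SE 0.060, interval 0.71 to 0.99, adjusted p = 2.28e-05). *Nrg4* (ENSMUSG00000032311.18, minus strand of chr9:55127506-55234128), the ErbB ligand, had TPM values of 15.5, 15.4 and 14.3 in K382Q cells and 10.9, 9.02 and 10.8 in K382R cells. It was the least abundant of the detected members in every library, and its groups still did not overlap (log2 fold change 0.54, SE 0.084, interval 0.35 to 0.73, adjusted p = 0.00122). *Nrg4* overlaps *Fbxo22* on the opposite strand by 4212 bases, and *Fbxo22* had TPM values of 44.5 to 47.7 over the 6 libraries (log2 fold change -0.060, adjusted p = 0.205).

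The remaining members that rose were *Lcn2*, *Nampt* and *Retn*. *Lcn2* (ENSMUSG00000026822.15, minus strand of chr2:32274645-32278264), encoding the siderophore-binding lipocalin, had TPM values of 359, 382 and 327 in K382Q cells and 253, 264 and 232 in K382R cells. The log2 fold change was 0.51 (SE 0.066, interval 0.36 to 0.66, adjusted p = 0.000480). *Nampt* (ENSMUSG00000020572.9, plus strand of chr12:32869544-32903348) had TPM values of 203, 194 and 200.4 in K382Q cells and 156, 152 and 153 in K382R cells. Its replicates were the tightest of the members that rose, and the log2 fold change was 0.37 (SE 0.030, interval 0.30 to 0.44, adjusted p = 4.46e-05). *Retn* (ENSMUSG00000012705.17, plus strand of chr8:3705770-3710110) had TPM values of 40.0, 46.9 and 44.0 in K382Q cells and 35.1, 34.7 and 34.1 in K382R cells. On the TPM scale *Retn* had the smallest difference of the 9, at a log2 fold change of 0.33 (SE 0.059, interval 0.19 to 0.46, adjusted p = 0.00265), and the lowest K382Q library still lay above the highest K382R library. With median-ratio scaling the smallest was that of *Agt* (-0.37, against 0.48 for *Retn*), as with quantile normalization (-0.37, against 0.49). *Lep* (ENSMUSG00000059201.13, plus strand of chr6:29060219-29073876) was listed at 0 in each library, so no difference in leptin could be examined.

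**Figure D2:**
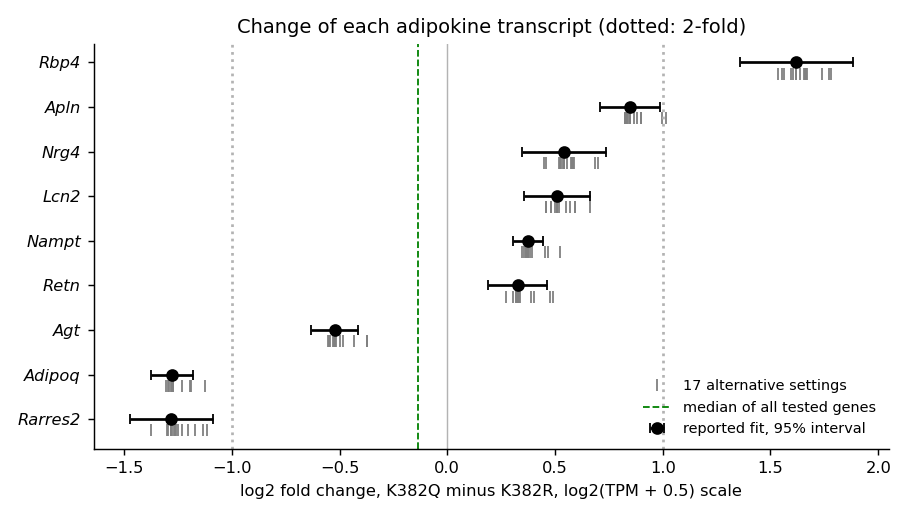
Log2 fold change of each tested adipokine, PPARγ2 K382Q minus PPARγ2 K382R, on the log2(TPM + 0.5) scale, with 95% intervals (points and bars), the values under the 17 alternative settings (grey ticks), the 2-fold lines (dotted) and the median of all tested genes at -0.14 (dashed). *Rbp4* lies at 1.62 and *Adipoq* and *Rarres2* at -1.28, and no interval or tick crosses 0.

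These opposite changes rearranged the order of the adipokine transcripts by TPM. In PPARγ2 K382R-overexpressing cells the order by TPM was *Adipoq*, *Lcn2*, *Nampt*, *Agt*, *Rarres2*, *Retn*, *Rbp4*, *Apln* and *Nrg4*, and no neighbours in it overlapped. In PPARγ2 K382Q-overexpressing cells the order was *Lcn2*, *Nampt*, *Adipoq*, *Rbp4*, *Agt*, *Retn*, *Apln*, *Rarres2* and *Nrg4*. There *Rbp4* (53.3 to 69.1 TPM) and *Agt* (54.8 to 60.5 TPM) overlapped, and the other neighbours did not. By TPM, *Retn* was the sixth and *Nrg4* the ninth in every library, whereas *Rbp4* went from rank 7 to rank 4 or 5 and *Rarres2* from rank 5 to rank 8. The summed TPM of the members was 911 to 962 in K382Q cells and 950.3 to 1008 in K382R cells, and these ranges overlapped. *Adipoq* made up 36.8% ± 1.22 (SD, n = 3) of that sum in K382R cells and 15.9% ± 0.518 in K382Q cells. *Lcn2* made up 25.6% ± 1.39 and 38.1% ± 2.02, and *Rbp4* 2.08% ± 0.266 and 6.81% ± 0.942. In the deposited coverage, the mean read depth per base, *Lcn2* and *Agt* had higher values than *Adipoq* in the 3 K382R libraries (*Agt* at 259.8, 256.6 and 209.9 against 151.3, 144.5 and 115.6 reads per base). Coverage stood in different ratios to FPKM in different genes, so it does not rank them. Of the summed coverage, *Adipoq* made up 14.2% ± 0.609 in K382R cells and 5.24% ± 0.217 in K382Q cells, and *Lcn2* 26.4% ± 1.38 and 33.7% ± 2.01. The order and the size of the shares are therefore stated by TPM only. The direction of the difference between the mutants in these shares was alike in both measures.

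**Figure D3:**
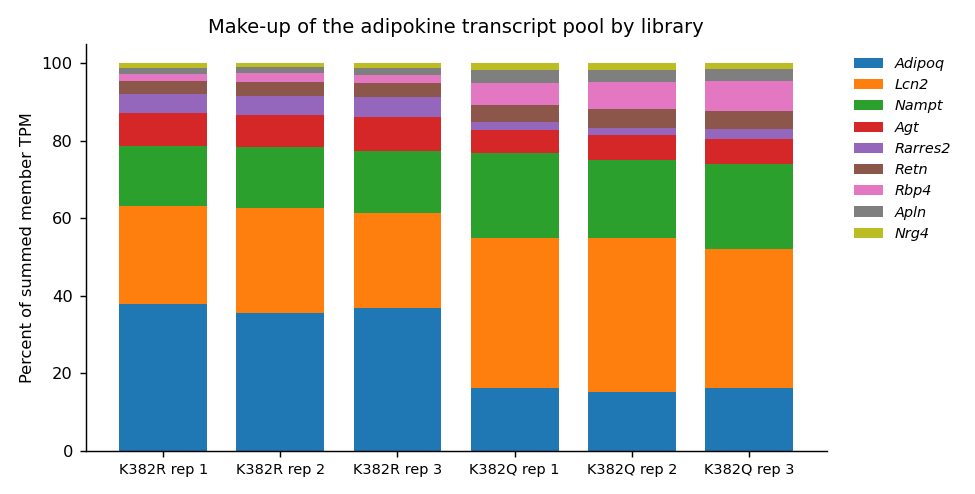
Share of each adipokine in the summed TPM of the members, in percent, for each of the 6 libraries (stacked bars, 3 PPARγ2 K382R and 3 PPARγ2 K382Q). *Adipoq* (blue) takes 35.6 to 38.0% in K382R cells and 15.3 to 16.2% in K382Q cells, and *Lcn2* (orange) takes 24.5 to 27.1% and 35.9 to 39.7%.

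A ratio of the TPM of 2 genes within a library is not altered by a factor that scales the whole library. By TPM, *Lcn2* stood at 0.695 ± 0.0581 times *Adipoq* in K382R cells and at 2.41 ± 0.193 times in K382Q cells. *Nampt* went from 0.427 ± 0.0178 to 1.34 ± 0.0241 times *Adipoq*. The *Rbp4* to *Adipoq* ratio was 0.0566 ± 0.00870 in K382R cells and 0.430 ± 0.0630 in K382Q cells, a 7.59-fold difference of the means. *Cfd*, the gene of adipsin, a complement protease released by adipocytes, stood at 0.572 ± 0.0135 times *Adipoq* in K382R cells and 3.28 ± 0.152 times in K382Q cells. By coverage the ratios to *Adipoq* in K382R cells were 1.87 ± 0.154 for *Lcn2*, 1.01 ± 0.0409 for *Nampt* and 4.26 ± 0.102 for *Cfd*. In K382Q cells they were 6.45 ± 0.538, 3.17 ± 0.0600 and 24.5 ± 1.15, and the values of the groups did not overlap in any of these ratios by TPM or by coverage. Coverage does not rank different genes, so its ratios describe the difference between the mutants only. Which gene of a pair was the more abundant is stated by TPM only.

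**Figure D4:**
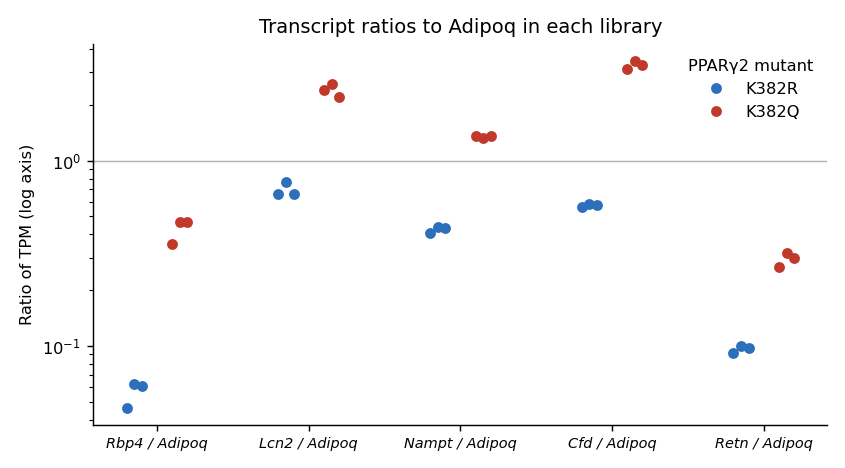
Ratios of TPM to that of *Adipoq* on a log axis, for *Rbp4*, *Lcn2*, *Nampt*, *Cfd* and *Retn* in each library (points; 3 PPARγ2 K382R in blue, 3 PPARγ2 K382Q in red). The line marks equal TPM; *Lcn2*, *Nampt* and *Cfd* lie below it in K382R cells and above it in K382Q cells.

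Other adipocyte-secreted proteins were also called both ways. Of 35 symbols listed, 34 had a gene and 23 were tested, of which 5 were higher, 12 lower and 6 not called (8 and 9 with median-ratio scaling, 6 and 11 with quantile normalization), with a median log2 fold change of -0.24. Among all tested genes 11.1% were higher and 36.9% lower (19.8% and 20.4% with median-ratio scaling, 19.15% and 21.01% with quantile normalization). *Cfd* rose from 214, 203 and 201 TPM in K382R cells to 467, 504 and 485 TPM in K382Q cells (log2 fold change 1.23, adjusted p = 6.92e-07). *Pltp*, the phospholipid transfer protein gene, rose by 1.58 (adjusted p = 2.34e-06). *Retnla*, a resistin-like relative of *Retn*, had 1.57, 0.958 and 0.835 TPM in K382Q cells and 0.258, 0.112 and 0.299 TPM in K382R cells, so it passed the filter only through the group where it was high. *Inhbb*, an inhibin and activin subunit gene picked after its values were seen, had 0.673, 0.287 and 0.207 TPM in K382Q cells and 1.22, 1.05 and 1.09 TPM in K382R cells, and likewise rested on the K382R libraries to pass. Both are in the counts of this list, and no test is given for either. *Fstl1*, a secreted follistatin-like glycoprotein, fell from 142, 141 and 148 TPM to 49.9, 47.3 and 45.7 TPM (log2 fold change -1.58, adjusted p = 3.00e-07). *Enho*, the gene of the peptide adropin, had a log2 fold change of -1.16 (adjusted p = 0.00242) at a mean of 0.783 TPM in K382Q cells. It did not reach a 2-fold change with FPKM (-0.78) or a pseudocount of 1 (-0.91), and was at -1.49 with a pseudocount of 0.1. Lipoprotein lipase (*Lpl*) was the most abundant of the list, at a mean of 1691 TPM in K382Q cells, and was lower with a log2 fold change of -0.19 (adjusted p = 0.00107), which was -0.10 with FPKM (adjusted p = 0.0282), -0.033 with median-ratio scaling (adjusted p = 0.405) and -0.41 with quantile normalization (adjusted p = 4.85e-05).

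A few more secreted factors were picked after their values were seen. *Fgf21*, a metabolic hormone made by liver and thermogenic fat, rose from 126, 142 and 128 TPM to 184, 199 and 175 TPM (log2 fold change 0.49, adjusted p = 0.000407). *Gdf15*, a stress-induced hormone that acts on the hindbrain, fell from 248, 242 and 244 TPM to 144, 156 and 145 TPM (-0.72, adjusted p = 5.10e-06). *C1qtnf1*, a paralogue of adiponectin in the C1q/TNF family, fell, at a log2 fold change of -0.98 (adjusted p = 2.70e-06). The other tested C1q/TNF genes of the list went both ways. *C1qtnf6* was lower (-0.49, adjusted p = 5.05e-05), *C1qtnf12* was higher (0.305, adjusted p = 0.0249) and *C1qtnf5* was not called (-0.29, adjusted p = 0.2515). *Angptl4*, an inhibitor of lipoprotein lipase and a classical PPAR target, had means of 1415 TPM in K382Q cells and a log2 fold change of 0.015 (adjusted p = 0.767). The scalings called it in opposite directions, at 0.17 with median-ratio scaling (adjusted p = 0.0173) and -0.14 with quantile normalization (adjusted p = 0.0105).

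Receptors of these hormones were mostly at low levels in these cells. Of 20 symbols, 19 had a gene and 5 were tested, and limma called 4 of them lower and left 1 not called (1 higher and 2 lower with median-ratio scaling, 1 and 3 with quantile normalization). Lower calls made up 36.9% of all tested genes and higher calls 11.1%. *Adipor2*, an adiponectin receptor, was the most abundant, at 275, 265 and 267 TPM in K382Q cells and 264, 274 and 270.0 TPM in K382R cells, and the groups overlapped (log2 fold change -0.0030, adjusted p = 0.942). It was called higher with median-ratio scaling (0.15, adjusted p = 0.00346) and with quantile normalization (0.10, adjusted p = 0.0253). *Adipor1* had TPM values of 114, 118 and 114 against 122, 121 and 127, a log2 fold change of -0.099 (adjusted p = 0.0379). That call was lost on leaving out K382Q replicate 1 (adjusted p = 0.0833), K382Q replicate 3 (0.103) or K382R replicates 1, 2 or 3 (0.0726, 0.0604 and 0.130). It was also lost without an intensity trend (0.106), without the filter (0.0537) and with FPKM (0.739), and its sign turned with median-ratio scaling (0.053) and quantile normalization (0.030). *Agtr1a*, the angiotensin receptor gene, had TPM values of 1.135, 1.333 and 1.160 against 1.813, 1.822 and 2.229 (log2 fold change -0.52, adjusted p = 0.0176), a call lost without K382Q replicate 3 (0.0514) or K382R replicate 3 (0.0646), without the filter (0.0588) and with median-ratio scaling (0.0529). *Slc22a17*, a receptor for lipocalin 2, and *Erbb2*, a partner of ErbB4, had log2 fold changes of -0.84 (adjusted p = 0.00437) and -0.57 (adjusted p = 0.00142), and both were picked after their values were seen. *Slc22a17* lay near the filter level in K382Q cells, where the pseudocount shapes the fold change. Its TPM was 0.587, 0.594 and 0.713 in K382Q cells and 1.35, 1.87 and 1.40 in K382R cells. The receptors of leptin (*Lepr*, at most 0.0484 TPM), apelin (*Aplnr*, at most 0.0850 TPM), chemerin (*Cmklr1*, at most 0.0874 TPM and *Ccrl2*, at most 0.6004 TPM) and RBP4 (*Stra6*, at most 0.371 TPM) did not pass the filter, and *Erbb4*, the neuregulin 4 receptor gene, was listed at 0.

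Partners of adiponectin in the endoplasmic reticulum were called in both directions, as were all tested genes (11.1% higher and 36.9% lower). Of 14 genes for the folding and secretion of adiponectin, 3 were higher, 6 lower and 5 not called, with a median of -0.12 (4 higher and 4 lower with median-ratio scaling, 2 and 4 with quantile normalization). *Ero1a*, the oxidase that supports disulfide bonding and the release of adiponectin multimers, rose from 283, 295 and 293 TPM in K382R cells to 910.3, 875 and 831 TPM in K382Q cells. This was a log2 fold change of 1.58 (SE 0.038, adjusted p = 2.77e-07), opposite in sign to the -1.28 of *Adipoq*. *P4hb*, the protein disulfide isomerase gene and the most abundant of the list, had a log2 fold change of 0.078 (adjusted p = 0.0486). Without K382Q replicate 2 or 3, or K382R replicate 1, 2 or 3, its adjusted p was 0.109, 0.0880, 0.162, 0.107 and 0.118, and it was 0.130 without the filter, 0.154 without an intensity trend and 0.167 with coverage. Its log2 fold change was 0.23 with median-ratio scaling and -0.050 with quantile normalization.

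Around *Rbp4*, the retinol list of 21 genes had 12 tested, of which 3 were higher, 2 lower and 7 not called, with a median of -0.031 (5 called with median-ratio scaling and with quantile normalization, all higher). Higher calls made up 11.1% of all tested genes and lower calls 36.9%. *Rbp7*, an intracellular retinol-binding protein of fat, rose from 14.7, 21.7 and 23.8 TPM to 62.3, 63.8 and 63.8 TPM (log2 fold change 1.66, SE 0.15, adjusted p = 8.98e-05). Its values and those of *Rbp4* were of like size in the 2 groups. *Dhrs3*, which reduces retinal to retinol, was the most abundant of the list and rose by 0.51 (adjusted p = 6.43e-05). *Ttr*, the plasma partner that RBP4 binds, was listed at 0.

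Around *Agt*, the renin-angiotensin list of 14 genes had 8 tested, of which 1 was higher, 5 lower and 2 not called, with a median of -0.20 (1 and 1 called with median-ratio scaling and with quantile normalization). All tested genes were called higher in 11.1% and lower in 36.9%. *Hsd11b1*, which regenerates active glucocorticoid, was the gene of the list that rose, from 11.6, 11.5 and 12.1 TPM to 27.4, 28.4 and 25.6 TPM (log2 fold change 1.17, adjusted p = 4.14e-06; 0.84 with coverage, under a 2-fold change). *Enpep*, an aminopeptidase that trims angiotensin II and that was picked after its values were seen, had a log2 fold change of -0.91 (adjusted p = 0.000259). *Ace*, the angiotensin-converting enzyme gene, was at 0.311 to 0.643 TPM over the 6 libraries with overlapping groups (log2 fold change 0.073, adjusted p = 0.797). *Atp6ap2*, the prorenin receptor gene and the most abundant, had a log2 fold change of -0.18 (adjusted p = 0.0202). That call was lost without K382Q replicate 2 (adjusted p = 0.0606), K382Q replicate 3 (0.0513) or K382R replicate 3 (0.0667), and with median-ratio scaling (-0.024, adjusted p = 0.702). It was also lost with quantile normalization (0.810), with FPKM (0.179), without the filter (0.0556) and without an intensity trend (0.0548).

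Around *Nampt*, 18 of 22 NAD genes were tested, of which 3 were higher, 5 lower and 10 not called, with a median of -0.044 (6 and 4 called with median-ratio scaling, 6 and 3 with quantile normalization). For all tested genes the shares were 11.1% higher and 36.9% lower. *Nmnat1*, which uses the product of NAMPT, had overlapping groups and a log2 fold change of -0.14 (adjusted p = 0.280). The NAD kinase gene *Nadk*, the most abundant, fell by 0.28 on the log2 scale (adjusted p = 0.000122), a log2 fold change of -0.13 with median-ratio scaling (adjusted p = 0.0131). After their values were seen, the mitochondrial kinase *Nadk2* (0.52, adjusted p = 0.000172), the mitochondrial deacetylase *Sirt3* (0.56, adjusted p = 0.000204) and the NAD-consuming *Parp1* (-0.41, adjusted p = 6.99e-05, and -0.25 with median-ratio scaling) were added. The other sirtuin genes of the list were called in both directions or not called. Around *Lcn2*, 10 of 12 iron and siderophore genes were tested, of which 1 was higher, 7 lower and 2 not called, with a median of -0.39 (2 and 6 with median-ratio scaling, 1 and 7 with quantile normalization). Again the shares of all tested genes were 11.1% higher and 36.9% lower. *Trf*, the transferrin gene, had TPM values of 1.70, 1.04 and 2.19 in K382Q cells and 3.90, 4.26 and 4.85 in K382R cells (log2 fold change -1.20, adjusted p = 0.00198), under a 2-fold change with FPKM (-0.91) and without K382Q replicate 2 (-0.99). The ferritin heavy chain gene *Fth1*, the most abundant, had overlapping groups and a log2 fold change of 0.031 (adjusted p = 0.512), and it was called higher with median-ratio scaling (0.18, adjusted p = 0.0121). *Bdh2*, linked to siderophore synthesis, and the transferrin receptor gene *Tfrc*, both picked after their values were seen, had log2 fold changes of 0.84 (adjusted p = 0.000241) and -0.46 (adjusted p = 0.000254).

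**Figure D5:**
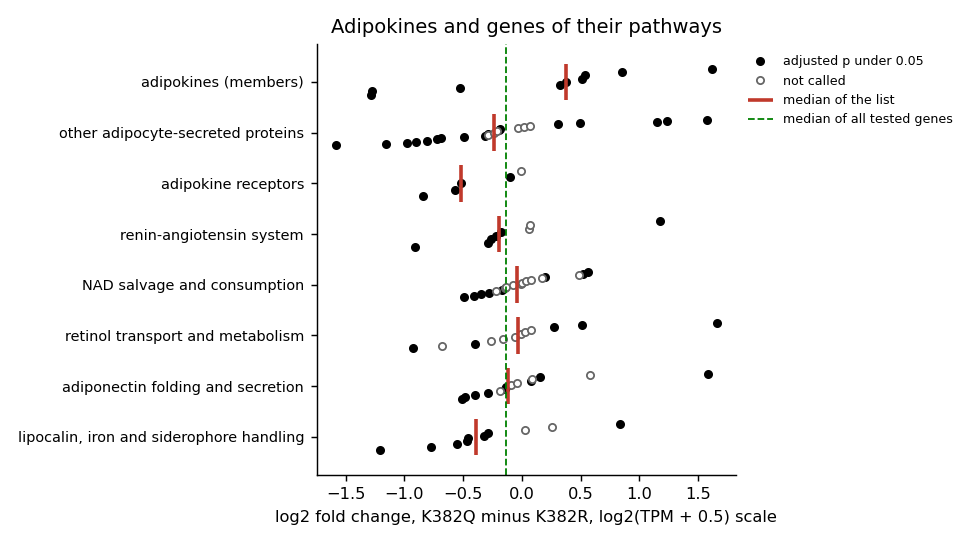
Log2 fold changes, PPARγ2 K382Q minus PPARγ2 K382R on the log2(TPM + 0.5) scale, of the tested genes of the adipokines and of each related list (filled, adjusted p under 0.05; open, not called), with the median of each list (red) and of all tested genes (dashed, -0.14). The adipokine median lies at 0.37, and those of the 7 lists lie between -0.52 and -0.031.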

How the data were processed

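RNA from 3 biological replicates of each PPARγ2 mutant was sequenced as 150-bp pairs (NEBNext Ultra RNA kit). According to the methods, the authors trimmed reads with TrimGalore, aligned them to GRCm39 with HISAT2, sorted them with SAMtools and ran StringTie. The annotation release is not given in the sources used here. The deposited TPM values (StringTie) sum to 1000000 in each library. The deposited FPKM values are scaled to the aligned bases of the library, and the deposited coverage is the mean read depth per base, not normalized. Genes at the most frequent ratio of coverage to FPKM (1239 to 1443 per library, of 7407 to 8552 with coverage over 20) gave the aligned bases. *Apln* and *Agt* lay at this ratio and the other detected members at 0.0781 to 0.711 of it, so coverage does not rank depth between genes. Counts were not analysed here. At most 3 gene IDs in a library were repeated and were summed. No pair of libraries shared identical values in more than 0.0145% of genes.

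Genes that reached 0.5 TPM in 3 or more libraries were tested with limma 3.58.1 (R 4.3.3, intensity trend) on log2(TPM + 0.5), which understates changes of low genes, with Benjamini-Hochberg adjustment over all 15426. DEGs had an adjusted p under 0.05 and a fold change over 2. Python 3.11.15, pandas 2.3.3, numpy 2.4.6, scipy 1.17.1 and matplotlib 3.10.9 served the rest. Intervals and SEs cover the spread of 3 replicates. Named genes were the members, from each list the DEGs and the most abundant gene, the receptors and partners of members, and those stated as picked after their values were seen. The members and lists were chosen with earlier results of these data known. Of the list symbols, *Asip* and *Gpr1* matched no gene. Results for some single genes of the lists are not shown. Alternatives were other pseudocounts (1, 0.1), filters (none, TPM of at least 1), FPKM, median-ratio and quantile scaling, no trend, array weights, a replicate block, each library left out and a fold change over 1.5. Coverage, scaled to the total of TPM or within a library for ratios and shares, was added after the data were seen.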

Additional observations from a re-analysis of the deposited data

How the results depend on the processing

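The 9 tested adipokines kept their direction and an adjusted p under 0.05 in all 17 alternatives that refit the data, coverage scaled to the total of TPM included. Over these, the log2 fold change was -1.30 to -1.13 for *Adipoq*, -1.38 to -1.12 for *Rarres2*, -0.55 to -0.37 for *Agt*, 1.53 to 1.78 for *Rbp4*, 0.824 to 1.013 for *Apln*, 0.45 to 0.70 for *Nrg4*, 0.46 to 0.66 for *Lcn2*, 0.35 to 0.52 for *Nampt* and 0.27 to 0.49 for *Retn*. With quantile normalization *Apln* passed the fold change over 2 (1.013), giving 2 members higher at that threshold, and with a fold change over 1.5 the number was also 2. Over all genes, DEGs numbered 196 higher and 403 lower, 286 and 603 with a pseudocount of 0.1, 152 and 227 with FPKM, 287 and 296 with median-ratio scaling, 277 and 306 with quantile normalization, and 577 and 1287 at a fold change over 1.5. Genes of the lists called were 16 higher and 41 lower, and 27 and 26 with median-ratio scaling, which moved the median of all genes from -0.14 to 0.0032. Reversed signs were seen for *Adipor2* (0.081 with FPKM, 0.15 with median-ratio scaling, 0.10 with quantile normalization, -0.018 to 0.0087 on leaving out a library), *Angptl4* (-0.14 with quantile normalization, -0.0023 with coverage, -0.022 to 0.038 on leaving out a library), *Adipor1* (0.053 and 0.030 with median-ratio and quantile scaling), *Nmnat1* (0.0091 and 0.016), *P4hb* (-0.050 with quantile normalization), *Fth1* (-0.11 with quantile normalization, -0.056 with coverage) and *Ace* (-0.056 to 0.19 on leaving out a library), and the cause was not tested. Replicate numbers did not pair the libraries, since deviations of same-numbered libraries correlated at -0.018, 0.051 and 0.022. With the replicate number as a block, 6 members were higher and 3 lower, list genes were 15 higher and 40 lower, and DEGs were 197 and 407. Of the list genes named, *Adipor1* and *P4hb* lost their call with the block (adjusted p = 0.0747 and 0.0820). Counts were not analysed here, so what depth limits could be judged only by level: receptors below the TPM filter were not tested in the filtered fit.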

Other observations

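Several genes of the angiotensin and retinoid pathways lay below the TPM filter and are given as values, picked after they were seen. Without the filter, 29522 genes were tested with limma. The genes named here were picked from 33 low list genes above 0 in some library, most of which had an adjusted p above 0.05. As they were picked from these values, no test is given for them. *Ren1*, the gene of renin, which cleaves angiotensinogen, had TPM values of 0.445, 0.729 and 0.304 in PPARγ2 K382Q-overexpressing cells and 0.0619, 0 and 0 in PPARγ2 K382R-overexpressing cells. *Agtr2*, the second angiotensin receptor gene, had 0.395, 0.278 and 0.284 against 0.0300, 0 and 0.0283 TPM. *Agt* itself was lower in K382Q cells. *Bco1*, which cleaves beta-carotene, had 0.173, 0.0912 and 0.182 against 0, 0 and 0.0466 TPM. *Ccrl2*, a chemerin-binding receptor, had 0.188, 0.270 and 0.214 TPM in K382Q cells against 0.4384, 0.6004 and 0.4143 TPM in K382R cells. These levels lie near the detection limit, where the pseudocount sets the size of a fold change.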
